A study of Homo sapiens with 2 samples.

Results

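A set of 10 enzymes that act on carbonyl compounds, quinones and electrophiles was examined in U87 cells treated with the curcumin analog CCA-1.1. They were the carbonyl reductases CBR1 and CBR3, the aldo-keto reductases AKR1B1, AKR1C1, AKR1C2 and AKR1C3, the quinone reductases NQO1 and NQO2, the glyoxalase GLO1 and the glutathione transferase GSTP1. The members were chosen by gene symbol, as enzymes that reduce carbonyls or quinones or that are known to bind curcuminoids, and no expression value is part of that rule. They are 10 of the 15485 genes that averaged 1 TPM or more over both libraries, out of 41582 gene symbols listed, and all 10 passed that filter. TPM scales reads to transcript length and to a fixed total per library, so levels of different genes can be set side by side.

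U87 is an established human glioblastoma cell line, labelled wild type, and was grown in medium with fetal bovine serum. One culture received CCA-1.1 for 72 h and the control received the vehicle DMSO for the same time, with 1 mRNA library for each of the 2 conditions. The dose used for sequencing is not given in the sources used here. With 1 library per condition no difference has a replicate check, no test was made, and the treatment cannot be told apart from any other difference between the cultures.

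These enzymes belong to several protein families with overlapping substrates. Carbonyl reductases of the short-chain family and aldo-keto reductases both use NADPH to turn aldehydes and ketones into alcohols, while the NQO flavoproteins reduce quinones straight to hydroquinones and so bypass the reactive semiquinone. GLO1 and GSTP1 depend on glutathione: the first isomerizes the adduct of methylglyoxal, a by-product of glycolysis, and the other joins glutathione to electrophiles. Curcuminoids are carbonyl compounds themselves. CCA-1.1 carries a hydroxyl group where its parent analog PGV-1 has a ketone, and CBR1, GLO1, AKR1B1, AKR1C3 and NQO2 were among the targets predicted for it in the study. Neither binding nor enzyme activity was measured in these libraries, only mRNA levels.

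All 10 members were expressed, each averaging 10 TPM or more, and no member was past 2-fold. With CCA-1.1, 7 were lower and 3 were higher, beside 4126 lower and 4458 higher among the 8589 genes that averaged 10 TPM or more. Differences are log2 ratios of the level with CCA-1.1 to that with DMSO, after 1 TPM was added to both, and over the members they ran from -0.33 for AKR1B1 to 0.27 for GLO1. A smaller step was set at a log2 difference of 0.32 in either direction, which is a ratio of 5 to 4, and AKR1B1 alone was past it. Of all genes averaging 1 TPM or more, 3.56% were past 2-fold in either direction and 18.4% were past the smaller step. Of those averaging 10 TPM or more, the range in which the members lie, 10.7% were past the smaller step. The members' counts of 0 and 1 of 10 were thus not above either background. Their median difference was -0.10, beside 0.03 for all genes that averaged 1 TPM or more and 0.0078 for those that averaged 10 TPM or more.

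**Figure D1:**
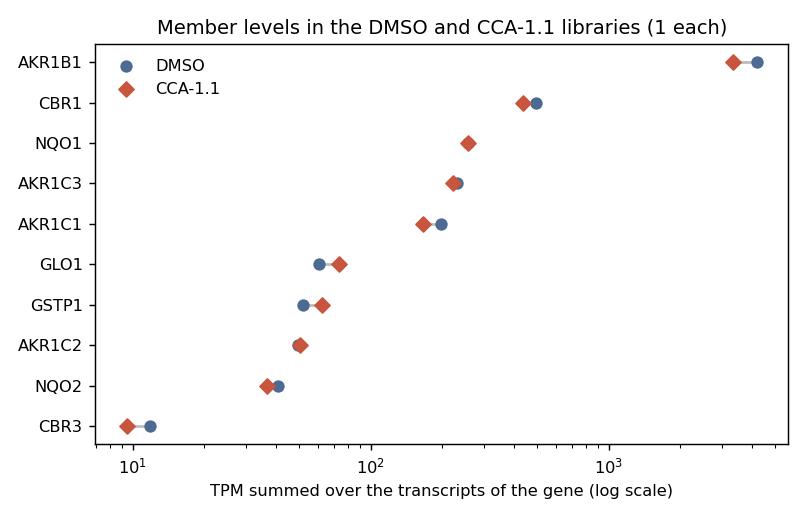
Levels of the 10 members in the DMSO library (circles) and the CCA-1.1 library (diamonds), as TPM summed over the transcripts of each gene on a log scale, with 1 library per condition and no error bars. The order of the genes is the same in both libraries, from AKR1B1 at 4201.77 and 3347.06 TPM down to CBR3 at 11.80 and 9.45 TPM.

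Before the single genes are described, the sequences of the members with near-identical relatives are given, because they bear on how well each value can be assigned. The coding sequences of AKR1C1 and AKR1C2, 972 bases each in GENCODE, differed at 19 positions and were 98.0% identical. AKR1C3 differed from AKR1C1 at 83 positions (91.5% identical) and from AKR1C2 at 87 (91.0%). AKR1C1 and AKR1C2 had an identical run of 189 coding bases. The 75 bases shown here, coding positions 88 to 162 in exon 2, hold 10 of the 19 differences between AKR1C1 and AKR1C2. That was the most among windows of this length that start at a codon and lie within a single exon in all 3 genes. These bases show where reads of coding sequence can separate the genes. Capitals mark the positions at which the 3 genes are not all the same. They lie in build GRCh37 at chr10:5008109-5008183 on the + strand (AKR1C1), chr10:5043796-5043870 on the - strand (AKR1C2) and chr10:5138605-5138679 on the + strand (AKR1C3).
AKR1C1: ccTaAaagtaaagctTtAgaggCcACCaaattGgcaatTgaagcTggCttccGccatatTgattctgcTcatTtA
AKR1C2: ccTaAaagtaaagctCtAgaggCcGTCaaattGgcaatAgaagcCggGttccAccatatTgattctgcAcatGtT
AKR1C3: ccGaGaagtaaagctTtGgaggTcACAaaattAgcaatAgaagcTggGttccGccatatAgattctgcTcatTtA

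AKR1C1 and AKR1C2 also had the same bases upstream of their start sites, although their levels differed. In the RefSeq promoter set of GRCh38.p14, 250 bases before to 50 after each start, 9 of the 10 members had an entry and CBR3 had none. AKR1C1 (chr10:4963169-4963413, + strand) and AKR1C2 (chr10:5003863-5004107, - strand) had the following 245 bases in common without a mismatch, ending 2 bases before the start of AKR1C1 and 6 before that of AKR1C2. The AKR1C3 promoter at chr10:5048531-5048830 had at most 12 upstream bases in a row in common with either gene. The other AKR1C3 promoter in the set, at chr10:5094164-5094463, was not compared. The start of AKR1C2 in that set lies inside the listed bounds of the gene, which has longer transcripts.
AKR1C1 and AKR1C2: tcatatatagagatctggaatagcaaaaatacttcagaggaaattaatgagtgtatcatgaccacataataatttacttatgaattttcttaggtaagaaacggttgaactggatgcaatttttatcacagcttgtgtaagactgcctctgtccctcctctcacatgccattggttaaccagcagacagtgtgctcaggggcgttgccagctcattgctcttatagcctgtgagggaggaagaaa

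The core of the antioxidant response element, the site bound by the stress-response factor NRF2, was searched as TGACNNNGC on both strands, since several members are known NRF2 targets. The search covered only 250 bases before to 50 after each start site. In that window GSTP1 and CBR1 held a match and the other 7 members with an entry did not. Bases further away were not searched, so the lack of a match does not show that a gene has no such element. The 9 members with an entry had 11 promoters, of which 2 (18.2%) held a match. Of all 35116 promoters of this length, 13.3% held one. The match in GSTP1 begins at position -66 from the start site, within chr11:67583716-67583784 on the + strand, and that in CBR1 at position -159, within chr21:36069835-36069903 on the + strand, where the motif reads in reverse. Capitals mark the match, and such a match says nothing about binding in these cells.
GSTP1: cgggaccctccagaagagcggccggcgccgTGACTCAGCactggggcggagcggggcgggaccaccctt
CBR1: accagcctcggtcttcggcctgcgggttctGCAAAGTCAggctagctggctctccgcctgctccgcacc
The 2 genes lay on opposite sides of no difference, CBR1 at -0.18 and GSTP1 at 0.26 on the log2 scale.

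The libraries were checked against markers of the labelled cell line. VIM was at 3216.80 TPM in DMSO and 3106.33 in CCA-1.1, CHI3L1 at 4946.71 and 4396.77 and CD44 at 607.39 and 472.58, all among the more abundant mRNAs. NES was at 7.53 and 7.62 TPM, OLIG2 at 5.64 and 7.03 and SOX2 at 1.87 and 1.45. The glial markers GFAP, at 0.41 and 0.57 TPM, and S100B, listed at 0 in both, were near or at 0, as was the T cell marker CD3E, and the leukocyte marker PTPRC was at 0.09 and 0.07 TPM. The macrophage marker CD68 was at 494.21 and 397.09 TPM and the neuronal markers SNAP25 and SYT1 were at 22.03 and 16.80 and at 11.38 and 11.54 TPM. RBFOX3, also neuronal, was at 1.83 and 2.45 TPM, so the neuronal markers did not share a direction. CD44 and CD68 were lower with CCA-1.1, as AKR1B1 was, and their part in its level was not tested. In bulk RNA, fewer cells with a transcript and less of it per cell cannot be told apart. The read depth is unknown, since TPM does not keep it.

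AKR1B1, aldose reductase, reduces glucose to sorbitol in the polyol pathway and also clears lipid-derived aldehydes. The gene (Entrez 231) lies at chr7:134442350-134459239 in GRCh38.p14. In the DMSO library it was at 4201.77 TPM, against 3347.06 TPM with CCA-1.1. By level it ranked 16 among all genes in DMSO and 19 in CCA-1.1, and it held 75.1% and 71.8% of the TPM of the 10 members together. With CCA-1.1 it fell by 20.3%, a log2 difference of -0.33 that lies just past the smaller step.

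The size of that difference was large in transcripts and moderate in ratio. AKR1B1 fell by 854.71 TPM, which ranked 12th among the falls of all genes on the linear TPM scale. On the log2 scale the gene lay at percentile 6.72 of the 15485 genes. Of the 119 genes averaging 1000 TPM or more, 10 were past the smaller step downwards, which is 8.40%, and AKR1B1 was the one of these with the smallest difference. The others were ANXA1, TIMP1, SOD2, TGFBI, C3, TFPI2 and the ribosomal RNA genes RNA28SN1, RNA28SN2 and RNA28SN4.

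AKR1B1 had 3 transcripts, and all were lower with CCA-1.1. The main coding transcript NM_001628.4 was at 3574.34 TPM in DMSO and 2782.04 in CCA-1.1, a log2 difference of -0.36. The other coding transcript NM_001346142.1 was at 319.76 and 292.59 TPM, and the noncoding NR_144376.2 at 307.67 and 272.43 TPM. The main transcript held 85.1% of the gene's TPM in DMSO and 83.1% in CCA-1.1, so the gene's difference lay mostly in that transcript. Its closest relatives AKR1B10 and AKR1B15, which reduce retinal and other carbonyls, were at 31.52 and 31.90 TPM and at 48.32 and 54.61 TPM, far below AKR1B1 and not lower with CCA-1.1. They resemble each other closely, so the split between them is uncertain. SORD, which oxidizes sorbitol to fructose in the next step of the polyol pathway, was at 20.06 TPM in DMSO and 22.66 in CCA-1.1.

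CBR1 and CBR3 lie close together on chromosome 21, at chr21:36070024-36073164 (Entrez 873) and chr21:36135079-36146562 (Entrez 874). CBR1 reduces quinones, prostaglandins and anthracycline drugs, while CBR3, its closest relative, has a narrower range of substrates. CBR1 was at 493.77 TPM in DMSO and 436.48 in CCA-1.1, a log2 difference of -0.18. CBR3 was at 11.80 and 9.45 TPM, a difference of -0.29. Both were lower with CCA-1.1, and neither was past the smaller step. CBR1 stood 41.8 times as high as CBR3 in DMSO and 46.2 times as high with treatment.

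Nearly all of the CBR1 level came from NM_001757.4, with 99.8% of the gene's TPM in DMSO and 99.6% in CCA-1.1. The short form NM_001286789.2 was at 1.21 and 1.55 TPM. CBR3 was mostly NM_001236.4, at 11.43 and 9.06 TPM. Each gene is overlapped by an antisense RNA, and whether the libraries kept the strand is not given in the sources used here. CBR1-AS1 was at 9.08 TPM in DMSO and 5.86 in CCA-1.1, a log2 difference of -0.56, and CBR3-AS1 was at 5.21 and 5.20 TPM. CBR1-AS1 was thus far below CBR1, while CBR3-AS1 was within the same range as CBR3. How far reads of the antisense RNAs entered the values of the 2 genes was not tested.

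The AKR1C genes form a cluster on chromosome 10, and their enzymes interconvert active and inactive steroid hormones. AKR1C1 (chr10:4963415-4983283, Entrez 1645) inactivates progesterone, AKR1C2 (chr10:4987775-5018000, Entrez 1646) inactivates dihydrotestosterone, and AKR1C3 (chr10:5048781-5107686, Entrez 8644) forms testosterone and prostaglandin F. AKR1C3 had the highest level, 231.23 TPM in DMSO and 221.98 in CCA-1.1, a log2 difference of -0.06. AKR1C1 was at 198.15 and 166.18 TPM, a difference of -0.25 at percentile 9.82 of all genes. AKR1C2 was at 49.36 and 50.54 TPM, a difference of 0.03. AKR1C1 was thus lower with CCA-1.1 and AKR1C2 and AKR1C3 lay within 0.1 of no difference.

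Reads from bases common to these genes are divided among them by estimation, so sums over the genes are firmer than the single values. The 3 genes together were at 478.74 TPM in DMSO and 438.70 in CCA-1.1, a log2 difference of -0.13. AKR1C1 and AKR1C2 together were at 247.51 and 216.72 TPM, a difference of -0.19. The share of AKR1C1 in the sum of the 3 was 41.4% with DMSO and 37.9% with CCA-1.1, that of AKR1C2 10.3% and 11.5%, and that of AKR1C3 48.3% and 50.6%. The ratio of AKR1C1 to AKR1C2 was 4.01 with DMSO and 3.29 with CCA-1.1, while that of AKR1C3 to AKR1C1 was 1.17 and 1.34. These ratios carry no replicate check. The ratio of AKR1C1 to AKR1C2 rests on reads over bases that these genes do not have in common, within the coding sequence or outside it.

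AKR1C2 showed the most spread among its transcripts, with 7 listed. NM_001393392.1 was at 25.10 TPM in DMSO and 22.07 in CCA-1.1, or 50.9% and 43.7% of the gene. NM_001135241.3 was at 11.00 and 12.21 TPM, and NM_001321027.2 was at 4.08 and 6.24 TPM, a log2 difference of 0.51. The other transcripts of the gene were each under 4 TPM, and XM_047424682.1 was at 1 TPM in DMSO and listed at 0 with treatment. As estimated, the small difference of the whole gene was a sum of a lower main transcript, several higher minor ones and the lower XM_047424682.1. Reads are also divided among the transcripts of a gene by estimation, and most of these were at low TPM. The split among them is thus uncertain and has no replicate check. AKR1C3 consisted almost wholly of NM_003739.6, at 230.12 and 221.41 TPM, and AKR1C1 of the single transcript NM_001353.6. Uncharacterized genes overlap both on the map, LOC124902365 with AKR1C1 at 2.64 and 3.37 TPM, and LOC107984198 and LOC124902366 with AKR1C3 at 0.30 and 0.69 TPM and at 0.73 and 1.09 TPM, all far below their neighbours.

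NQO1 (chr16:69709401-69726560, Entrez 1728) is an NRF2 target that is induced by many electrophiles. It was at 256.39 TPM with DMSO and at 255.93 TPM with CCA-1.1, a log2 difference of -0.0026, the nearest to 0 of the 10 members. NQO2 (chr6:2999894-3019755, Entrez 4835), which uses dihydronicotinamide riboside in place of NADPH, was at 40.65 and 36.55 TPM, a difference of -0.15. Neither was past the smaller step. NQO1 stood 6.31 times as high as NQO2 in DMSO and 7.0 times in CCA-1.1.

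The level of NQO1 as a whole hid small differences of opposite sign in the estimates for its transcripts. The full-length NM_000903.3 was at 229.78 TPM in DMSO and 225.31 in CCA-1.1, or 89.6% and 88.0% of the gene. NM_001025434.2 was at 20.15 and 24.14 TPM, 7.86% and 9.43% of the gene, with a log2 difference of 0.25. NM_001025433.2 was at 5.80 and 5.65 TPM. An antisense RNA, NQO1-AS1, overlaps NQO1 on the map but had no value here, and its part in the reads of NQO1 was not tested. In NQO2 the main transcript NM_000904.6 was at 28.84 and 25.38 TPM and the next, NM_001290221.2, at 7.67 and 7.11 TPM. A pseudogene within the bounds of NQO2, HTATSF1P2, was at 51.04 and 47.56 TPM, above NQO2 itself.

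GLO1 and GSTP1 had the highest differences of the set, and both were within the smaller step. GLO1 (chr6:38675925-38703145, Entrez 2739) was at 60.84 TPM in DMSO and 73.68 in CCA-1.1, a log2 difference of 0.27 at percentile 85.2 of all genes. GSTP1 (chr11:67583812-67586653, Entrez 2950) was at 51.75 and 62.17 TPM, a difference of 0.26 at percentile 84.2. Each gene was represented by 1 transcript, NM_006708.3 and NM_000852.4. AKR1C2, at 0.03, was the other member that was higher.

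**Figure D2:**
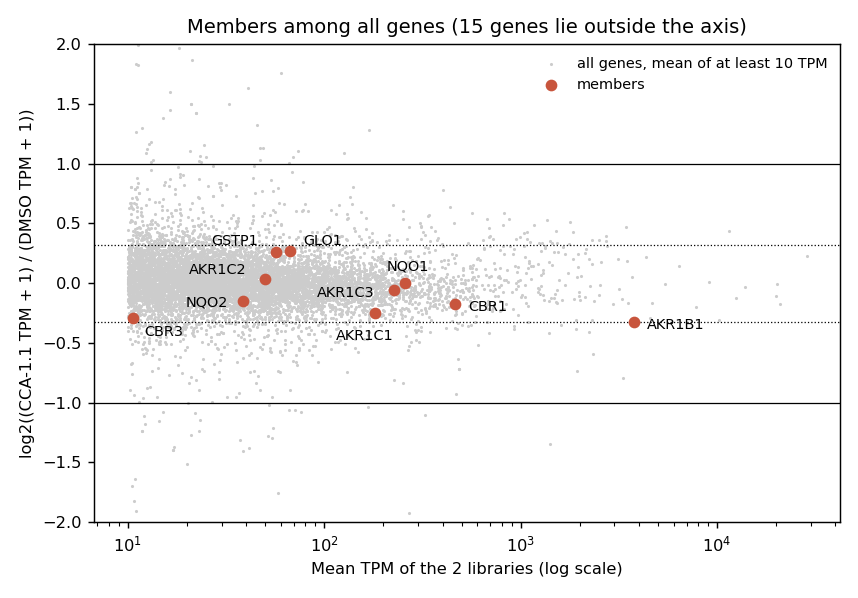
Difference between the libraries, log2((CCA-1.1 TPM + 1) / (DMSO TPM + 1)), against the mean TPM of both libraries on a log scale, for the 8589 genes averaging 10 TPM or more (grey) and the 10 members (labelled). Solid lines mark 2-fold and dotted lines the smaller step of 0.32, and AKR1B1 is the only member at or beyond a line.

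Summed over the set in TPM, the difference was carried by AKR1B1, which held 75.1% of that sum in DMSO. A sum of TPM follows its most abundant gene. The 10 members together were at 5595.71 TPM in DMSO and 4660.02 in CCA-1.1, a log2 difference of -0.26. The 9 members without AKR1B1 were at 1393.94 and 1312.96 TPM, a difference of -0.09. The sum fell by 935.69 TPM, and AKR1B1 alone fell by 854.71 TPM. The order of the 10 by level, AKR1B1, CBR1, NQO1, AKR1C3, AKR1C1, GLO1, GSTP1, AKR1C2, NQO2 and CBR3, was identical in both libraries.

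The 28 listed transcripts of the members were also taken one by one. Of these, 23 averaged 1 TPM or more, and 13 were lower and 10 higher with CCA-1.1, beside 15852 lower and 18548 higher among all 34503 transcripts at such levels. None of the 23 was past 2-fold, beside 7.04% of all transcripts at such levels. The main transcript of AKR1B1 was past the smaller step downwards, and 1 was past it upwards, NM_001321027.2 of AKR1C2, so 2 of 23 were past it beside 38.3% of all transcripts. The 14 transcripts averaging 10 TPM or more differed by -0.36 to 0.27 on the log2 scale. NM_001253908.2 of AKR1C3, at 0.39 TPM in DMSO, and XM_047424682.1 of AKR1C2 were listed at 0 with CCA-1.1.

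**Figure D3:**
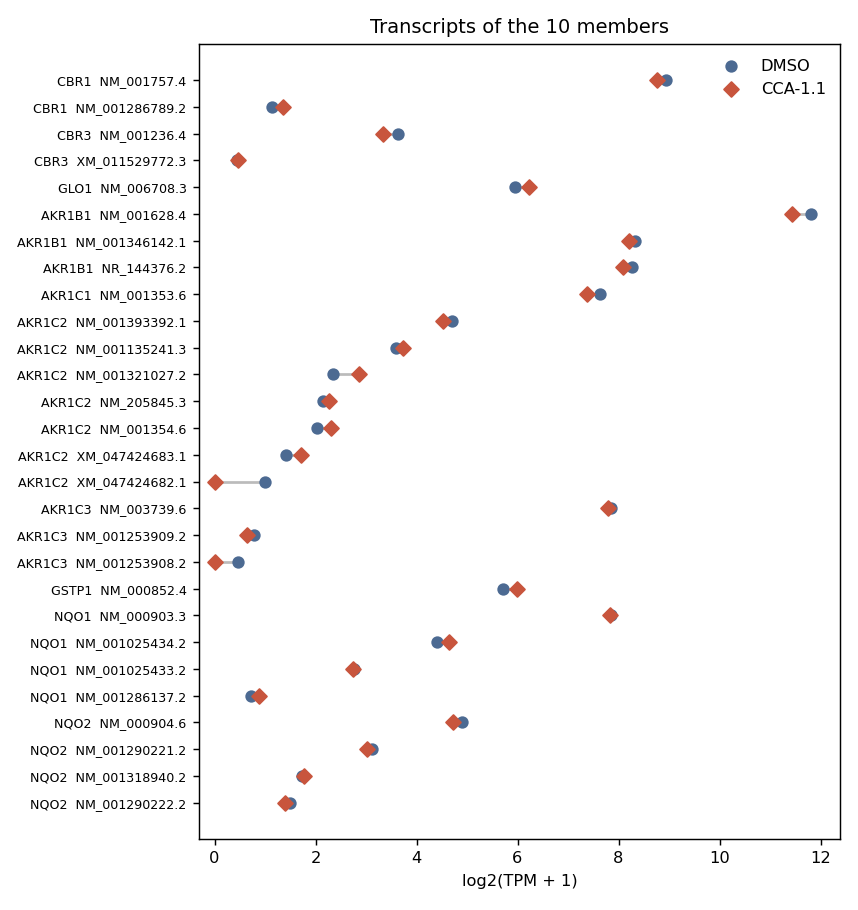
Level of each of the 28 transcripts of the members as log2(TPM + 1) in the DMSO library (circles) and the CCA-1.1 library (diamonds), with 1 library per condition. In all 10 genes the leading transcript is the same in both libraries, and the widest gaps are in AKR1C2 transcripts of low level.

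How far each gene can be told from others was measured with words of 31 bases, the default length on which Kallisto matches reads, in the longest coding GENCODE transcript of each member. GLO1 and NQO2 had no word in common with another gene and GSTP1 had 0.141%. For AKR1B1 it was 20.6%, all of it with 8 pseudogenes of AKR1B1. For CBR1 it was 22.9%, with CBR1-AS1, and for CBR3 67.6%, with CBR3-AS1, while CBR1 and CBR3 themselves had only 3.10% of the words of CBR3 in common. By this measure GLO1, GSTP1 and NQO2 were the members least open to exchange of reads with other genes, and CBR3 and AKR1C2 the most. The measure depends on the transcript taken, which had 6543 bases for AKR1C1 and 3215 for AKR1C2. In coding sequence alone both genes had nearly the same share, so AKR1C1 was not better set apart there than AKR1C2.

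For AKR1C2 59.3% of the words were found in another gene, 58.2% in AKR1C1, and for AKR1C1 it was 29.1%. For AKR1C3 it was 22.1%. Within the coding sequences alone, 70.1% of the words of AKR1C1, 70.7% of those of AKR1C2 and 26.3% of those of AKR1C3 occurred in another AKR1C member. For NQO1 it was 24.9%, spread over 4328 genes, of which an unnamed gene had 21.1%. GENCODE is not the transcript set the authors used, so these shares describe the genes and not the exact index.

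The members were then set beside other genes of the same families and pathways, from lists written with earlier results of these data known. No gene of these lists that averaged 1 TPM or more was past 2-fold. The list of the aldo-keto reductase superfamily also holds the potassium channel subunits KCNAB1, KCNAB2 and KCNAB3. Among its 8 measured genes none was past the smaller step, with a median log2 difference of 0.08. The highest of those with at least 10 TPM was AKR1A1, which reduces glucuronate and many aldehydes, at 95.11 TPM in DMSO and 112.82 in CCA-1.1. The lowest was AKR7A2, a succinic semialdehyde reductase, at 82.67 and 78.55 TPM. Among the members and this list, AKR1B1 was thus the one aldo-keto reductase past the smaller step, and by a small margin. Of all genes averaging 1 TPM or more, 18.4% were past that step.

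Of 23 other short-chain reductases and dehydrogenases, 4 were past the smaller step upwards and 1 downwards, with a median of 0.07. HSD17B4, a peroxisomal enzyme of fatty acid oxidation, was at 26.28 TPM in DMSO and 37.77 in CCA-1.1, a log2 difference of 0.51. RDH14, a retinol dehydrogenase, was at 10.55 and 14.03 TPM. DHRS7 and DCXR, a xylulose reductase, had the lowest differences among those with at least 10 TPM, -0.09 and -0.06. CBR1 and CBR3 lay below both. Among the genes averaging less than 10 TPM, HSD17B8, the 1 past the smaller step downwards, was lower than CBR1 and CBR3, at -0.49. DHRS3, at -0.23, was lower than CBR1 but not CBR3.

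Of 16 other quinone and enone reductases, 2 were past the smaller step upwards and 1 downwards, with a median of 0.06. CYB5R3, the cytochrome b5 reductase, was at 192.48 TPM in DMSO and 144.76 in CCA-1.1, a log2 difference of -0.41. POR, which passes electrons from NADPH to cytochromes P450, was at 53.86 and 47.21 TPM. PTGR1, which reduces enones of prostaglandins, was at 41.66 and 47.80 TPM, and CRYZL1, a quinone oxidoreductase homolog, at 25.49 and 31.36 TPM. The difference of CYB5R3 was larger than that of NQO1, NQO2 or any other member.

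The glyoxalase and glutathione transferase lists held few differences. Of 5 other glyoxalase system genes none was past the smaller step. HAGH, the glyoxalase that acts after GLO1, was at 39.03 TPM in DMSO and 35.21 in CCA-1.1, and so did not share the sign of GLO1, while GLOD4 was at 55.91 and 60.06 TPM. Of 12 other glutathione transferases none was past the smaller step upwards and 2 were past it downwards, both under 10 TPM, with a median of 0.01. GSTK1, a mitochondrial and peroxisomal transferase, was at 76.57 and 88.57 TPM, and GSTA4, which conjugates hydroxynonenal, at 35.63 and 32.42 TPM. The microsomal MGST1 was far above GSTP1, at 1036.88 and 1099.12 TPM.

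All 20 genes of a list of NRF2 regulators and targets were measured, with 1 past the smaller step upwards, none downwards and a median of 0.02. SLC7A11, the cystine importer, was at 17.98 TPM in DMSO and 23.09 in CCA-1.1, a log2 difference of 0.34. FTL, a ferritin chain, was at 26272 and 30788 TPM. The lowest were GCLM, the modifier subunit of the glutathione-forming ligase, at 34.12 and 30.22 TPM, and KEAP1, the repressor of NRF2, at 52.24 and 46.71 TPM. HMOX1, at 186.32 and 185.99 TPM, was as near to no difference as NQO1.

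**Figure D4:**
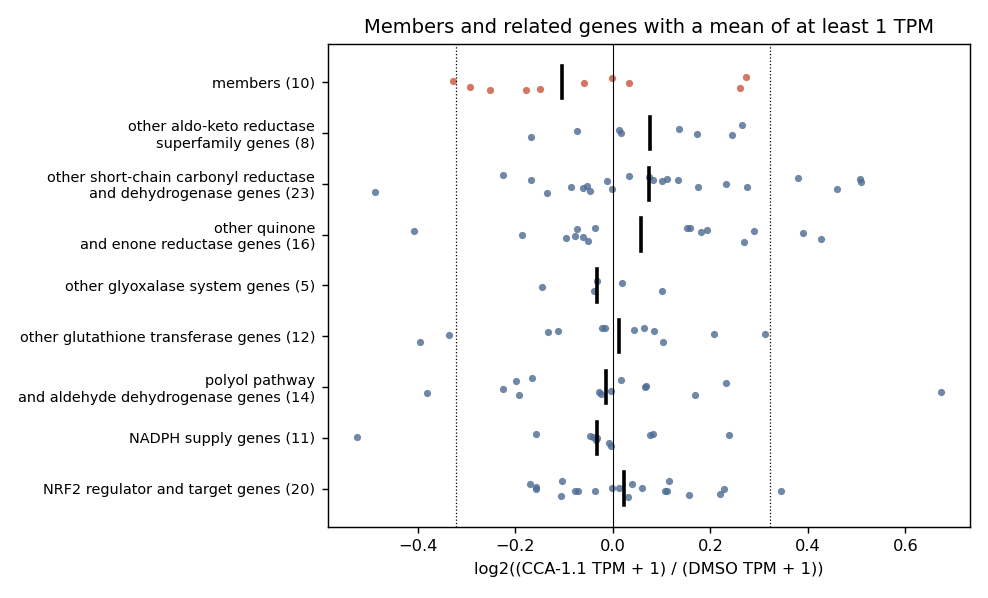
Difference between the libraries, log2((CCA-1.1 TPM + 1) / (DMSO TPM + 1)), of the 10 members (red) and of the measured genes of 8 related lists (blue), 1 point per gene, with the median as a black bar, the number of genes in brackets and dotted lines at the smaller step. The members have the lowest median, -0.10, and the medians of the other lists lie between -0.03 and 0.08.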

How the data were processed

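U87 cells were sequenced after 72 h with DMSO or CCA-1.1, with 1 library for each of 2 conditions. Reads were checked by the authors with FastQC 0.11.9 and MultiQC 1.1, and Kallisto gave transcript abundances on GRCh38.p14; the deposited values are TPM, rounded to 2 decimals, for 177816 transcripts, with column sums of 999999 and 1000000. The authors used edgeR for their own comparison, which was not used here. Symbols were taken from the RefSeq genes of GRCh38.p14, which 169966 transcripts matched; the 7850 others held 0.941% of the TPM in DMSO and 0.967% in CCA-1.1. Values were summed per gene, and differences were taken as log2 ratios after adding 1 TPM, a scale that understates differences of genes at low TPM. No column was left unused.

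Because TPM are not counts and there was 1 library per condition, no test was made. A gene was counted as past 2-fold at a log2 difference above 1 or below -1, and as past the smaller step at 0.32. All 10 members were named, with the overlapping genes that had a value above 0. Each related list gave its genes past 2-fold, or otherwise its 2 highest and 2 lowest differences among genes averaging 10 TPM or more. The relatives and next-step enzymes named beside the members, and other genes named beyond this rule, were chosen after their values were seen. An item under this rule is not reported here. The members and lists were chosen with earlier results of these data known. Words of 31 bases and AKR1C coding sequences came from GENCODE transcripts on GRCh37, and promoters from RefSeq. Pseudocounts of 0.1 TPM and none, other minimum means, curated transcripts, versioned matches and median-ratio scaling were tried. The calculation was tested on simulated data with large planted changes, at the 2-fold step only. The smaller step was not tested in this way. Python 3.11.15 was used with numpy 2.4.6, pandas 2.3.3 and matplotlib 3.10.9.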

Additional observations from a re-analysis of the deposited data

How the results depend on the processing

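The members' differences changed little with the settings tried. None of these changed how reads were assigned to transcripts, and some could move the values only little. Versioned matches left every member value unchanged, and the median-ratio factor was 1.006. Over 50 recalculated values of the 10 members, under pseudocounts of 0.1 TPM and none, curated transcripts only, versioned matches only and scaling by the median ratio, none changed sign or crossed the smaller step of 0.32, and the largest shift was 0.03 on the log2 scale, for CBR3 without a pseudocount. AKR1B1 lies just past the step and CBR3, at -0.32 without a pseudocount, just within it, so that AKR1B1 alone is past it rests on small margins. Of 96 recalculated values in all, 95 stayed within their tolerance and 1 moved: the median of the other quinone and enone reductases was -0.052 with a minimum mean of 10 TPM, in place of 0.057. The share of all genes past the smaller step ran from 10.2% with no minimum and 10.7% at 10 TPM to 23.6% with a pseudocount of 0.1 TPM. Without a pseudocount, transcripts at 0 in a library give no value. No paired analysis was possible because each condition had a single library. The depth behind a value is unknown.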

Other observations

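Enzymes that supply NADPH to the reductases, and those that oxidize aldehydes, were measured as well. Of 11 NADPH supply genes 1 was past the smaller step downwards and none was past it higher, with a median log2 difference of -0.03. That gene was IDH2, the mitochondrial isocitrate dehydrogenase, at 106.26 TPM in DMSO and 73.56 in CCA-1.1, a log2 difference of -0.52. PGD, phosphogluconate dehydrogenase, at 136.89 and 144.92 TPM, and ME2, a mitochondrial malic enzyme, at 10.94 and 13.09 TPM, were the highest with at least 10 TPM.

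Of 14 polyol pathway and aldehyde dehydrogenase genes 1 was past the smaller step upwards and 1 downwards, with a median of -0.01. ALDH1A3, which forms retinoic acid, was at 69.87 TPM in DMSO and 59.62 in CCA-1.1, a log2 difference of -0.23, and ALDH9A1 was at 21.86 and 18.91 TPM. The highest with at least 10 TPM were ALDH18A1, an enzyme of proline synthesis, at 37.78 and 44.53 TPM, and SORD. No library was set apart from others of its group, since each group held 1.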
